A study of Caenorhabditis elegans with 2 samples.

Results

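The distal intergenic peaks of NHR-48 on the autosomes were examined in Caenorhabditis elegans larvae by chromatin immunoprecipitation with sequencing (ChIP-seq). NHR-48 is a nuclear hormone receptor, and it was precipitated through a C-terminal GFP-FLAG tag with an antibody against GFP. The animals were whole hermaphrodite L4 larvae, the last larval stage, of strain OP518, collected 48.5 h after synchronisation of starved L1 larvae. The strain carries the unc-119(tm4063) allele on chromosome III and the transgene wgIs518, so binding was read from a transgene product in whole animals, and the labels do not say which cells make it. The 2 biological replicates form 1 group. Regions were called against a control file, per the deposited file listings, and that control was not analysed here. Of the 3361 peaks that passed the authors' test of reproducibility between replicates (IDR, the irreproducible discovery rate), 2519 lay on autosomes. Members were the autosomal peaks whose summit lay in no annotated gene, over 500 bp from any tRNA gene, and outside every window from 1000 bp upstream to 200 bp downstream of a protein-coding 5′ end. This left 608 members, 24.1% of the autosomal peaks (exact 95% interval 22.5 to 25.9%).

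Nuclear hormone receptors are zinc-finger transcription factors that bind short DNA elements related to AGGTCA or AGTGCA, and nematodes have a greatly expanded family of them, most with no known ligand. Worm genes are compact, and most mapped factor binding lies close to 5′ ends, so sites between genes and away from every promoter are candidates for enhancers or for unannotated transcription starts. Sequences found at such sites in worms include GA repeats, the E-box CACGTG bound by bHLH proteins, and TGATAA, the element bound by GATA factors such as the intestinal ELT proteins.

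The summit windows of 6 of the strongest clusters of members are shown, since these are the sites of highest signal. Each is 100 bp of the plus strand of ce11 (RefSeq sequence of WBcel235) starting 50 bp before the summit. Capitals mark the GATA-factor element TGATAA, the GA repeat GAGAGA, the E-box CACGTG and a sequence of 10 bases, GAGACGCAGA, on either strand. The last was picked after the members' windows had been counted and was not among the preset motifs.
R11F4.2 to R11F4.1, chrII:4089369-4089468: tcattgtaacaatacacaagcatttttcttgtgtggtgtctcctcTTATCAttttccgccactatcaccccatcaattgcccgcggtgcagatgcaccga
sup-26 to R10E4.3, chrIII:4282157-4282256: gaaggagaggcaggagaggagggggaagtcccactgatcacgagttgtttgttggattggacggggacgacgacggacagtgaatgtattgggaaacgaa
irld-18 to dmd-6, chrIV:14594444-14594543: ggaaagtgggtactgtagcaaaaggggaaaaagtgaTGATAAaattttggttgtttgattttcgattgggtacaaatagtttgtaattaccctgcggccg
K08B12.3 to dmd-7, chrV:6238540-6238639: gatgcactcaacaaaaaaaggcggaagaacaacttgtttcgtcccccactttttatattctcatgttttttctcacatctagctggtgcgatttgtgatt
npax-1 to nhr-21, chrII:7337605-7337704: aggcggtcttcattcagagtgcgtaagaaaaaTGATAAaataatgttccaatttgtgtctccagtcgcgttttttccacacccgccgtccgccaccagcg
T04C4.3 to fnip-2, chrIV:2219579-2219678: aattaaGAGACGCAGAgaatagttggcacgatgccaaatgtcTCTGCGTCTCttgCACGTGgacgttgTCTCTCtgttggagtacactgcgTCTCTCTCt
TGATAA lay in the windows beside R11F4.1, dmd-6 and nhr-21, and the window between T04C4.3 and fnip-2 held the other marked sequences, with GAGACGCAGA on both strands. The windows beside sup-26 and K08B12.3 held none of the marked sequences. The window beside K08B12.3 did hold AGTGCA and TATAAA, which were not marked.

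The strongest members lay beside genes of varied kinds, among them an RNA-binding protein gene, DM-domain factor genes and nuclear hormone receptor genes. Signal is the authors' value for a region, and it is given here only to rank regions within a list. The strongest member, at II 4089069 to 4089719 between R11F4.2 and R11F4.1, had a pooled signal of 2701, with 1578 in replicate 1 and 1128 in replicate 2. It ranked 16th of all IDR peaks and lay 2511 bp upstream of R11F4.1. Second came III 4281872 to 4282624, 1983 bp upstream of sup-26, which encodes an RNA-binding protein, with a pooled signal of 2380 and replicate signals of 1563 and 834. The replicates placed the summit 17 bp apart at the first of these and 1 bp apart at the second.

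The third member had no coding 5′ end within 13 kb. It lay at IV 14594141 to 14594815 in a gap of 35563 bp between irld-18 and dmd-6, 13455 bp from the start of irld-18 and 22109 bp from dmd-6, a DM-domain factor gene. Its pooled signal was 2366, with 1371 and 1006 in replicates 1 and 2. The gap held 5 members at 4 separate sites, the weakest with a signal of 110, and the strongest of them was the only one of the 25 strongest clusters there.

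Clusters 5, 8 and 10 in order of signal lay next to genes of the receptor family itself. A member at II 7337337 to 7337947 (pooled signal 1394, replicate signals 908 and 490) lay 1574 bp upstream of nhr-21. The member at IV 9867849 to 9868344 (1058, with 711 and 344) lay 11240 bp upstream of nhr-4, although K07F5.15 was the nearer gene. At III 4237637 to 4238121 (987, with 592 and 395) the summit lay 4662 bp upstream of nhr-20. Further down, V 20778176 to 20778657 (945, with 601 and 342) lay 1993 bp upstream of hif-1, the hypoxia-inducible factor. Lower among the 25 strongest clusters were members beside vhp-1, a MAP kinase phosphatase gene (795, 1281 bp upstream), and mak-1, a MAPKAP kinase gene (682, 1883 bp upstream). Others lay beside hmp-1, which encodes alpha-catenin and whose 3′ end lay 7093 bp away (661), and the acyl-CoA synthetase gene acs-11 (637, 155 bp past its 3′ end). A further member lay beside the pyruvate carboxylase gene pyc-1 (618, 1699 bp upstream). R13H4.5 was nearer than hmp-1, at 1416 bp, and D2023.4 was nearer than pyc-1, at 805 bp. In each replicate's own list the 25 ranked no lower than 172nd, and their replicate summits lay at most 129 bp apart.

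Members lined up in the 9196 bp between K08B12.3 and dmd-7, a DM-domain factor gene whose promoter held the strongest nuclear peak (2955). Upstream of dmd-7 the members lay at 8341, 6906, 5991, 3439, 3236 and 2151 bp from its start. Their pooled signals in that order were 1404, 1254, 938, 973, 262 and 340. In replicate 1 the signals were 866, 691, 485, 591, 169 and 227, and in replicate 2 they were 536, 568, 457, 380, 67.9 and 114. The members at 3439 and 3236 bp are 2 summits of 1 interval (V 6243131 to 6243804), so the gap held 5 separate sites. The signals at 3236 and 2151 bp were the lowest in both replicates. With 5 more members between W06H8.6 and K08B12.3, the region held 11 members at 8 separate sites within 15.2 kb.

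**Figure D1:**
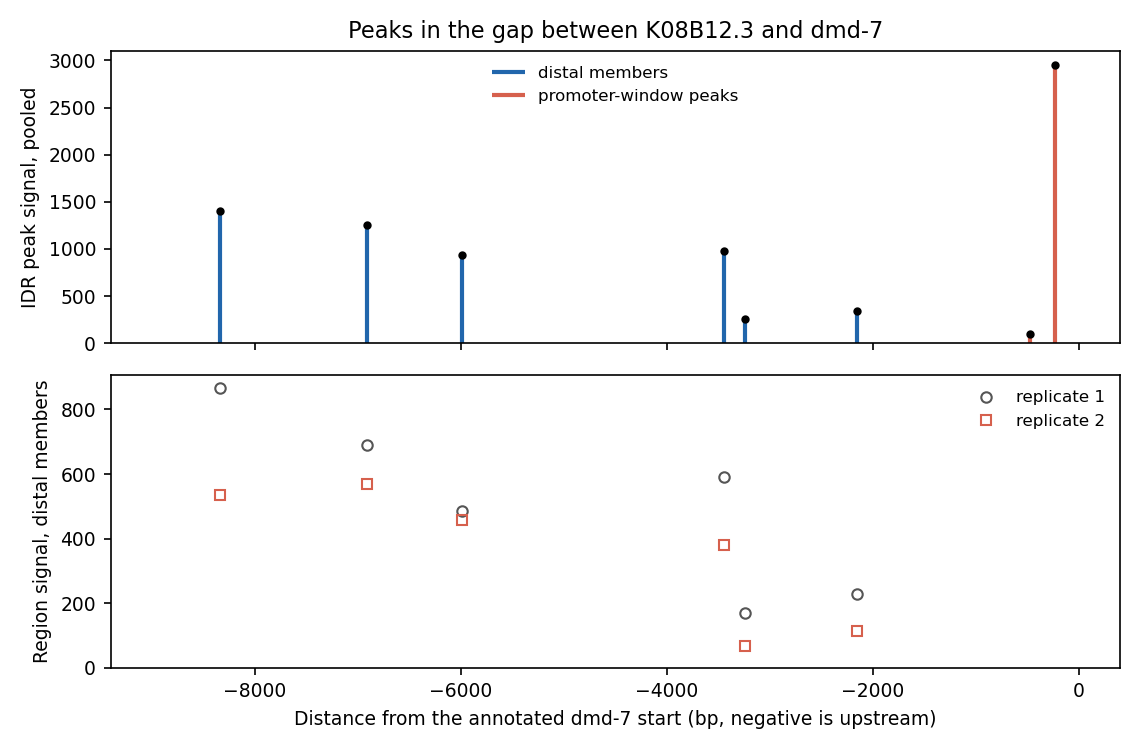
Peaks in the gap upstream of dmd-7, against distance from its annotated start in bp. The upper panel gives the pooled signal of each IDR peak (blue for members, red for the peaks in the promoter window) and the lower panel the signal of the overlapping region in each replicate for the members, which runs from 67.9 to 866.

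Member signals ranged from 95.7 to 2701, with a median of 159.5 and quartiles of 119.3 and 240. Most members were near the lower end: 484 of 608 (79.6%) had the common width of 476 bp, the highest signal among these was 392.5, and their median was 141 against 388 for members of other widths. Against the median signal of all nuclear IDR peaks, 155, 322 members (53.0%) lay above it, as did 624 of 1269 autosomal promoter peaks (49.2%) and 118 of 220 X peaks that met the same positional rule (53.6%). Neither difference passed the test (3.79 percentage points, two-sided Fisher's exact test with Benjamini-Hochberg adjustment over the 8 share tests, adjusted p = 0.338, and -0.676 points, adjusted p = 0.875). The exact 95% intervals of the 3 shares were 48.9 to 57.0%, 46.4 to 52.0% and 46.8 to 60.4%.

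At most members the summits of the 2 replicates lay within 50 bp of each other. A region of replicate 1 overlapped 607 members and a region of replicate 2 overlapped 604, with 603 (99.2%) overlapped in both. Reproducibility in these replicates chose the list, so that share describes the selection. The summit distances depend on the selection too, and on the matching, which took the overlapping region with the summit nearest the member's. The 3361 top-ranked regions of both replicates covered 449 members (73.8%), against 74.7% of promoter peaks and 77.3% of distal X peaks. Summits of the replicates lay within 50 bp of each other at 433 of 603 members (71.8%, exact 95% interval 68.0 to 75.4%), with a median distance of 25 bp. The share was 74.2% at promoter peaks (adjusted p = 0.574, Fisher's exact test) and 74.0% at distal X peaks (adjusted p = 0.7955, the same exact test). Over the 603 members, the rank in replicate 1 had a Spearman rho of 0.683 with that in replicate 2, across peaks of 1 selected list. Sequence that recurs in the genome, which hampers mapping, was rare: 12 members (1.97%) had over 10% of the 36-mers of their summit window repeated elsewhere, against 2.21% of promoter peaks (Fisher's exact test, adjusted p = 0.875) and 0.909% of distal X peaks (adjusted p = 0.601).

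**Figure D2:**
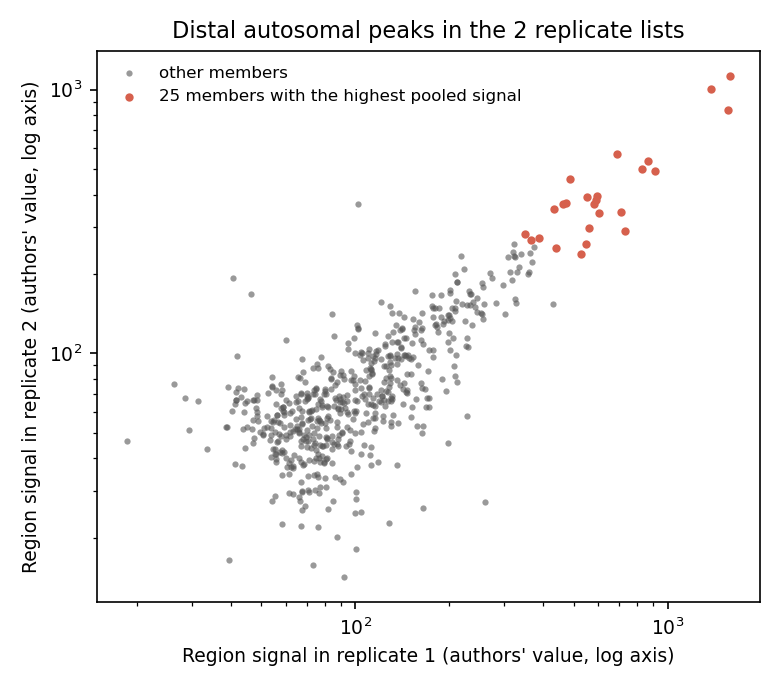
Authors' signal of the region overlapping each member in replicate 1 and replicate 2, both on log axes, for the 603 members found in both lists. The 25 members with the highest pooled signal, in red, lie at the upper right, up to 1578 in replicate 1 and 1128 in replicate 2.

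The summits of members were richer in G and C than their surroundings and more often held certain short sequences. Median G+C was 42% in the summit windows and 33% in windows centred 300 bp away on a randomly chosen side. These flank windows were not held to the positional rule and may lie in genes or promoter windows. Of 2084 sequences tested (all 6-mers with their reverse complements, and the preset motifs longer or gapped), 170 (8.16%) were in more summit windows than flanks and 133 (6.38%) in fewer (exact two-sided McNemar test, adjusted p under 0.05). The base composition moved with these counts: for 6-mers with no G or C the median ratio of summit to flank share was 0.448, and for those with 4 such bases it was 1.5. The ratio of summit to flank share of the 6-base motifs described below is therefore given beside the median of 6-mers with as many G and C bases.

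GA repeats, GATA-factor elements and E-boxes all recurred at member summits. GAGAGA lay in 174 of 608 summit windows (28.6%) and 48 flanks (7.89%), a ratio of 3.62 against a median of 1.18 for its composition (exact McNemar test, adjusted p = 3.91e-17). TGATAA lay in 157 (25.8%) and 63 (10.4%), a ratio of 2.49 against 0.630 (same exact test, adjusted p = 9.01e-10). CACGTG lay in 54 (8.88%) and 11 (1.81%), a ratio of 4.91 against 1.5 (exact test, adjusted p = 3.06e-06). These 3 sequences kept direction and call under each of the 11 alternatives run for this comparison. Of the receptor elements, AGTGCA was in 49 summit windows (8.06%) and 23 flanks (3.78%), a ratio of 2.13 against 1.18 (exact test, adjusted p = 0.0188), a call lost with the promoter window at 2000 bp upstream and 500 bp downstream (adjusted p = 0.228). AGGTCA was in 25 of each, 4.11%, a ratio of 1.0 against 1.18. AGTTCA was in 5.76% and 7.57%, a ratio of 0.761 against 0.917 (exact test, adjusted p = 0.510).

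TATAAA was in fewer summit windows (6.41%) than flanks (12.5%; exact test, adjusted p = 0.00558), and so was TTTCAG, the splice acceptor sequence (7.73% against 14.6%, a ratio of 0.528 against 0.917; adjusted p = 0.00268). Among members above the median signal of all nuclear IDR peaks neither passed (exact test, adjusted p = 0.0723 and 0.0632), and TTTCAG was also lost with the longer promoter window (0.198) and in 50 bp windows (0.172). With flanks 500 bp away, TTTCAG was in 18.6% of flanks. Summits lay outside genes by the rule and flanks need not, and the part of this in the TTTCAG counts was not tested. The presets TGACTCA and GTAAACA, the gapped GAANNTTC and the CRE-like TGACGTCA passed in neither direction. For TATAAA the ratio of 0.513 was above the median of 0.448 for 6-mers without G or C. The 10 lower 6-mers with the smallest p were, with 1 exception, made of A and T alone, led by AAAAAT (24.0% against 53.8%, a ratio of 0.4465 against 0.448), and TTGAAA was the exception.

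Parts of a longer sequence had the highest ratio to the flanks among the 10 higher sequences of smallest p. ACGCAG lay in 75 summit windows (12.34%) and 6 flanks (0.987%), a ratio of 12.5 against 1.5 for its composition (exact test, adjusted p = 4.93e-15), and GACGCA in 70 and 7, a ratio of 10 against 1.5 (adjusted p = 1.87e-12). These 6-mers overlap within GAGACGCAGA, the commonest 10 bases at member summits, picked after the windows were counted and so given with no test. It was in 47 summit windows (7.73%) and 1 flank (0.164%), in 71 promoter summit windows (5.59%) and in 2 distal X windows (0.909%). At 60 copies near member summits, the base before it was A in 76.7% and the base after it was G in 55%. Of 789 copies in the autosomal bases that met the rule, 54 (6.84%) lay within 50 bp of an IDR summit. Within 50 bp of a summit of the pooled list, which the authors labelled as peaks and background, lay 111 (14.1%).

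Most copies of 6 preset sequences had no IDR summit within 50 bp. The share of all bases meeting the rule that lay so near a summit was not counted. These shares can therefore be compared only with each other, and several GAGAGA copies can come from 1 window (174 member windows held it). The share of GAGACGCAGA copies is not comparable with them, since that sequence was picked for its frequency at these summits. Of 14479 GAGAGA copies in the bases that met the rule, 432 (2.98%) lay within 50 bp of an IDR summit, as did 61 of 2427 CACGTG copies (2.51%), 213 of 16670 TGATAA copies (1.28%), 62 of 6508 AGTGCA copies (0.953%), 25 of 4987 AGGTCA copies (0.501%) and 39 of 12594 AGTTCA copies (0.31%). The flanking bases of the E-box differed at members from the genome. TCACGTGA made up 15 of 59 E-boxes in member windows (25.4%) and 233 of 2427 in the bases that met the rule (9.60%), while ACACGTGG made up 5 (8.47%) and 433 (17.8%); these shares were compared after the values were seen and were not tested.

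**Figure D3:**
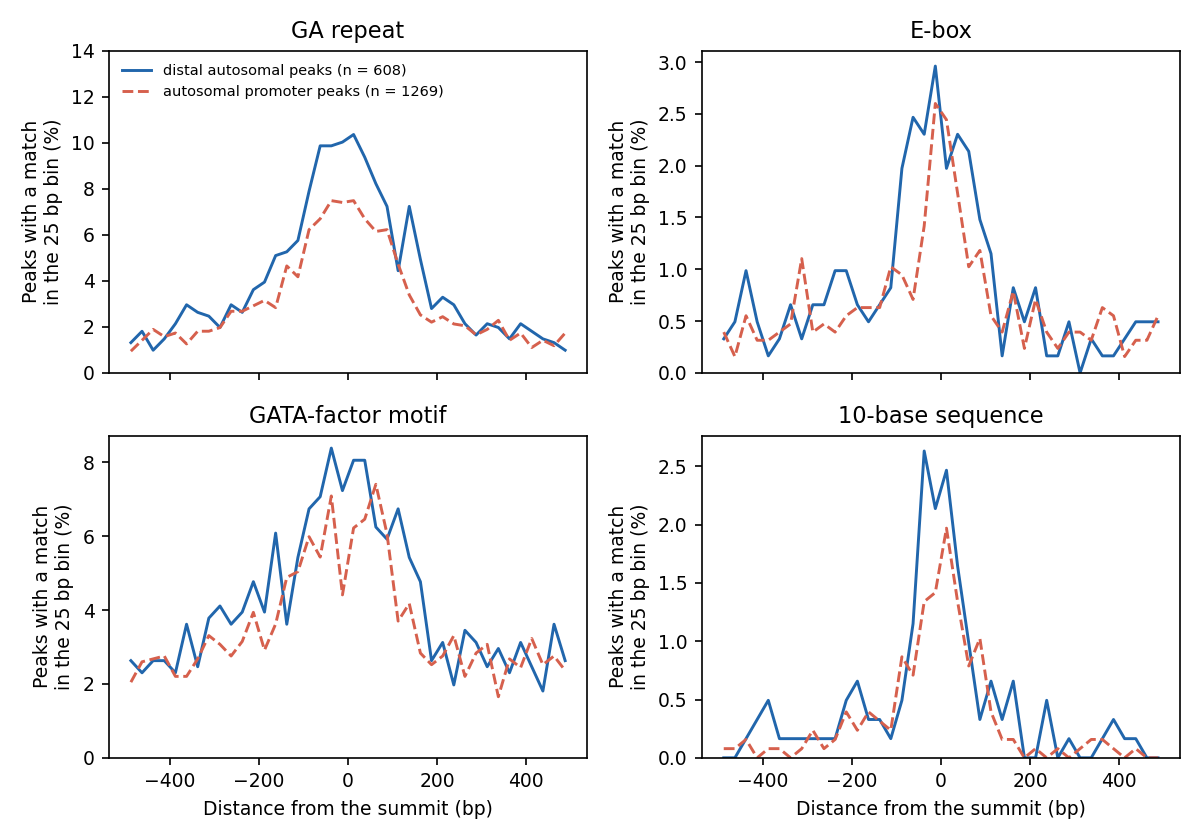
Share of peaks, in percent, with a match in each 25 bp bin up to 500 bp from the summit, for 608 members (blue) and 1269 autosomal promoter peaks (red, dashed). At members the GA repeat reached 10.4%, the GATA-factor motif 8.39%, the E-box 2.96% and the 10-base sequence 2.63%, all within 50 bp of the summit.

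GAGAGA and TGATAA shared 18 windows, where the product of their shares gives 44.9, and TGATAA shared 3 windows with GAGACGCAGA (12.1 by the product). GAGACGCAGA lay with GAGAGA in 37 of its 47 windows, and the pair can overlap where GA precedes it. No test was run on these counts. At least 1 of the GA repeat, the E-box, the GATA-factor element and the 10-base sequence was in 351 members (57.7%) and in 18.9% of flanks. The last was picked from the member windows, so part of this difference follows from the choice. Counted apart in that order, they were at 22.1, 7.88, 19.3 and 5.59% of promoter summits. Uninterrupted GA runs of at least 10 bases were at 35 members (5.76%), 8 flanks (1.32%), 38 promoter peaks (2.99%) and 3 distal X peaks (1.36%), the longest member run being 37 bases.

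The sequences were described along the range of signal in 4 equal groups of 152 members. From the lowest to the highest group, CACGTG was in 5.26, 9.87, 8.55 and 11.8% of members, and GAGAGA in 23, 29.6, 30.3 and 31.6%, with exact 95% intervals that overlap between the lowest and highest groups. TGATAA was in 24.3, 21.1, 32.9 and 25%. Lower values came from 3527 weaker pooled regions that met the rule and overlapped no IDR peak. The authors labelled the pooled list as peaks and background, so these regions may include background as well as weaker binding. CACGTG was in 1.98% of them (exact 95% interval 1.55 to 2.50%), GAGAGA in 11.5% (10.4 to 12.6%), TGATAA in 12.4% (11.3 to 13.5%) and GAGACGCAGA in 1.45% (1.08 to 1.90%).

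Compared with autosomal promoter peaks, fewer members held several G+C-rich sequences. Of 2084 sequences, 30 (1.44%) were in a smaller share of members and 9 (0.432%) in a larger share (two-sided Fisher's exact test, adjusted p under 0.05). CGCCAG was in 13 members (2.14%) and 93 promoter peaks (7.33%; exact test, adjusted p = 0.00195), AAGCGC in 0.987% and 5.12% (adjusted p = 0.00195), and ACGCGC in 2.96% and 7.96% (adjusted p = 0.00581). CTGTCA was in 56 members (9.21%) and 49 promoter peaks (3.86%; exact test, adjusted p = 0.00355), and TGACCA in 7.40% and 2.99% (adjusted p = 0.00772). None of the 12 preset motifs passed. GAGAGA was in 22.1% of promoter peaks (exact test, adjusted p = 0.0905) and TGATAA in 19.3% (adjusted p = 0.0683). GAGAGA passed in peaks taken from the list of replicate 1 alone (exact test, adjusted p = 0.0451) and TGATAA among members above the median signal (0.0139). CTGTCA was lost in both of those settings (exact test, adjusted p = 0.0964 and 0.267), and CGCCAG with the longer promoter window (0.307). G+C moved with the comparison, with a median of 44% at promoter summits and 42% at members, and its part was not tested. The ratio of member to promoter share was 0.292 for CGCCAG and 0.372 for ACGCGC, against a median of 0.703 for 6-mers of their composition. For AAGCGC it was 0.193 against 0.875. The number lower fell to 18 with replicate 1 alone and to 6 with the longer promoter window.

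Compared with the 220 distal X peaks, few sequences differed, and those calls depended on the setting. CGCAGA was in 82 members (13.5%) and 7 X peaks (3.18%; adjusted p = 0.00676, Fisher's exact test), AGAGAC in 21.7% and 8.64% (adjusted p = 0.00676), and AGAGAG in 24.2% and 10.9% (adjusted p = 0.0117). These were the 3 of 2084 sequences (0.144%) in a larger share of members, and CAGGGA (1.645% and 7.73%, exact test, adjusted p = 0.0304) was the 1 (0.048%) in a smaller share. GAGAGA itself, in 16.4% of X peaks, did not pass (exact test, adjusted p = 0.0991), though it did in replicate 2 alone (0.0127), and AAGAGA and AGAGAA did not pass (0.2185 for both), of which AGAGAA passed in replicate 2 alone (exact test, adjusted p = 0.0143). None of the 3 higher sequences passed the exact test in replicate 1 alone (adjusted p = 0.144 for CGCAGA, 0.132 for AGAGAC and AGAGAG), with the longer promoter window (0.0820, 0.588 and 0.588) or in 50 bp windows (0.718, 0.387 and 0.354). Above the median signal AGAGAC (exact test, adjusted p = 0.3165) and AGAGAG (0.0779) were lost, and AGAGAG was also lost in replicate 2 alone (0.05625) and in 200 bp windows (0.428). CAGGGA was lost above the median signal (exact test, adjusted p = 0.0779), with the longer promoter window (0.485) and in 50 bp windows (0.382).

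Fewer members than the available bases would hold lay between convergent genes, whose 3′ ends face each other. There were 54 members (8.88%, exact 95% interval 6.74 to 11.4%) in such gaps, which hold 16.5% of the autosomal bases that met the rule, or 19.96 members per Mb (exact two-sided binomial test, adjusted p = 2.14e-07). Tandem gaps held 347 members (57.1% against 53.2% of bases, exact test, adjusted p = 0.0562) and divergent gaps 207 (34.05% against 30.2%, adjusted p = 0.0562), or 39.7 and 41.7 per Mb. The convergent deficit passed in each of the 5 alternatives run, with a ratio of observed to available share from 0.525 to 0.667 against 0.539. Every base counted was outside the promoter windows. Distance to 5′ ends beyond those windows was not matched between the classes of gap, and its part was not tested. The nearest coding 5′ end was a median of 2226 bp away (quartiles 1456 and 3432, highest 13460), and 444 members lay upstream of it and 164 downstream.

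Members were denser in the middle of the autosomes than toward the ends. The central part of each autosome, as long as either outer part, held 267 members (43.9%, exact 95% interval 39.9 to 48.0%) and 32.05% of the bases that met the rule (exact two-sided binomial test, p = 9.74e-10). The density was 50.7 members per Mb in the central parts and 30.56 outside. Each of the 5 autosomes had a larger share of its members there than of its bases, with the smallest excess on III (41.2% against 34.7%) and the largest on I (50.7% against 31.1%). By chromosome, none of the 5 shares passed the exact binomial test after adjustment (3 had an unadjusted p under 0.05), with ratios from 0.8095 on I to 1.19 on II (adjusted p = 0.0802 for both). These tests treat members as independent, although members share gaps: 278 of the 608 lay in 102 gaps with 2 or more.

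**Figure D4:**
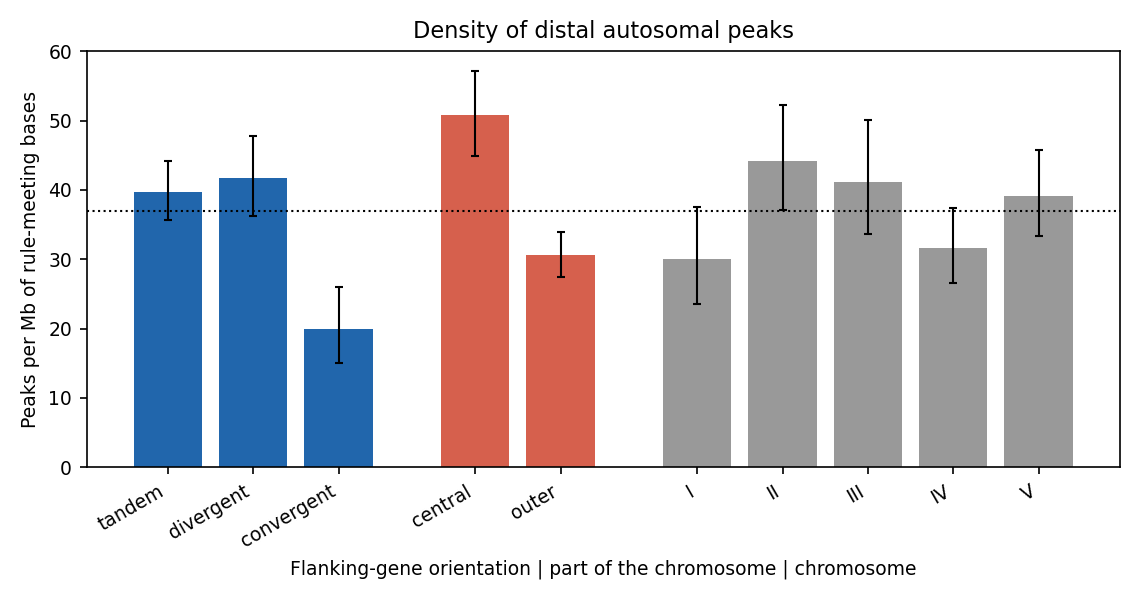
Members per Mb of autosomal bases that met the rule, by orientation of the flanking genes, part of the chromosome and chromosome; bars start at 0, error bars are exact 95% Poisson intervals for counting error only and the dotted line is the mean of 37.0. Convergent gaps stand lowest at 19.96 and the central parts highest at 50.7.

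Several gaps between coding genes held runs of members. The 608 members fell in 432 of 7232 autosomal gaps with any base that met the rule, and merging overlapping intervals left 557 separate sites. In density, members lay at 37.0 per Mb, against 57.1 for promoter peaks in promoter windows, 12.2 for peaks inside genes outside those windows, and 43.1 for distal X peaks. The gap with the most was asp-13 to ZC190.4 on V, with 8 members at 7 separate sites, of signals from 96.6 to 529, in 22871 bp. Others, picked after the counts were seen, lay between din-1, which encodes a co-repressor partner of the receptor DAF-12, and ghi-1 (5 members at 5 sites, up to 446), and between ZC250.4 and let-418, a Mi-2 chromatin remodeller gene (5 at 5 sites, up to 334). Between T27E4.7 and hsp-16.1, a small heat shock protein gene present in near-identical copies, 5 members had signals of 334, 510, 161, 354 and 99.4, and their windows held no repeated 36-mer. They lay past the 3′ end of hsp-16.1 and formed 3 separate sites, since the members of 510 and 161 overlapped, as did those of 354 and 99.4.

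Neighbouring summits were frequent. Another IDR summit lay within 1000 bp of 171 members (28.1%, exact 95% interval 24.6 to 31.9%), of 21.4% of promoter peaks (adjusted p = 0.0111, Fisher's exact test) and of 37.3% of distal X peaks (adjusted p = 0.0530). The spacing was uneven: no summit was closer than 199 bp to a member's, 104 members had their nearest summit at 199 to 220 bp, 12 at 221 to 500 bp and 55 at 501 to 1000 bp. Promoter peaks and distal X peaks had the same minimum of 199 bp, with 180 and 55 peaks at up to 220 bp. With overlapping intervals merged, the shares were 10.4% at members and 7.17% at promoter peaks, a difference that did not pass (exact test, adjusted p = 0.237). With intervals unmerged, the difference from promoter peaks did not pass for summits within 500 bp (exact test, adjusted p = 0.301) or with the longer promoter window (0.396), where the difference from distal X peaks passed (0.00618). The cause of the spacing was not tested.

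Genes of fatty acid metabolism, nuclear hormone receptors and a mixed list of zinc finger and other factors stood beside members at shares above the background, as a description with no test. Over all 17242 autosomal protein-coding genes, 833 (4.83%) were the next coding gene on a side of a member. Of 60 fatty acid genes, 11 were (18.3%, exact 95% interval 9.52 to 30.4%), and the gaps beside the family held 178 members per Mb, against 37.0 in all, or 149 separate sites per Mb against 33.9. They included fat-1 and fat-2, which encode omega-3 and delta-12 desaturases and share a gap with 4 members at 2 separate sites (signals 454 and 142 at one site, 469 and 132 at the other), acs-11, and acs-6 (332, 1605 bp upstream). Of 247 receptor genes, 25 were (10.1%, 6.66 to 14.6%), at 69.0 members and 65.8 separate sites per Mb, with nhr-88 (372, 2585 bp upstream) after nhr-21, nhr-4 and nhr-20.

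The mixed list of zinc finger, DM-domain, forkhead, SOX and bZIP factor genes had 12 of 44 beside a member (27.3%, 15 to 42.8%), with 27 members at 23 separate sites in 0.262 Mb. Beside dmd-6 and dmd-7 it included daf-16, the FOXO factor of insulin signalling (582, with the summit beyond its 3′ end), and klf-1 (248, 2827 bp upstream). Of 28 bHLH genes 3 were beside a member (10.7%, 2.27 to 28.2%; 39.2 members per Mb): hif-1, mml-1, a Mondo-like factor gene (372, 1869 bp upstream), and hlh-10 (116). The GATA list had 1 of 8: egl-27 (257, 12443 bp upstream), at 37.3 members per Mb.

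**Figure D5:**
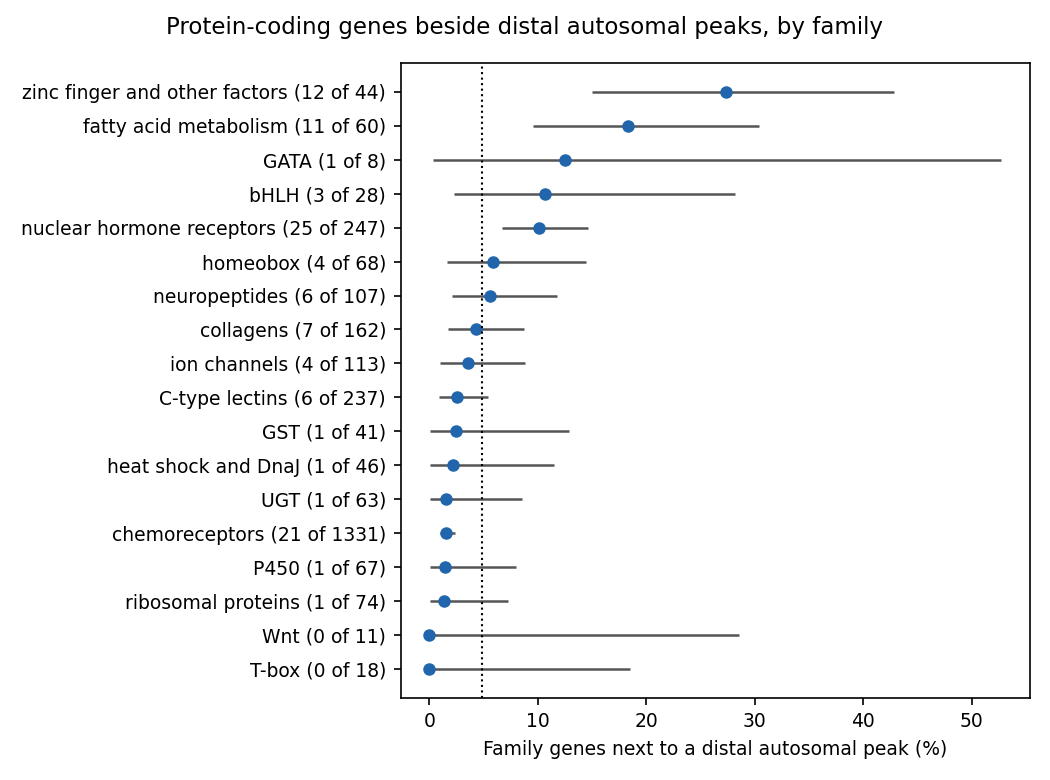
Share of the genes of each family that were the next coding gene on a side of a member, in percent, with exact 95% intervals for counting error; the numbers beside each name are genes beside a member and genes in the family, and the dotted line is the 4.83% of all autosomal coding genes. The mixed list of factor genes and the fatty acid genes lie at 27.3% and 18.3%, chemoreceptors at 1.58%.

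In the other families the share of genes beside a member was 5.88% or less, and the density of members varied more. Chemoreceptor genes, the family with the most genes, were beside members in 21 of 1331 cases (1.58%, 0.979 to 2.40%), at 16.9 members per Mb. Homeobox genes had 4 of 68 (5.88%) at 11.2 members per Mb, among them mec-3 of the touch receptor neurons (270, 1445 bp upstream) and lim-7 (243, 9543 bp upstream). The mec-3 member lay nearer to ugt-43, 1276 bp upstream of it. The lim-7 member lay 15 bp upstream of the snoRNA gene T19B4.8. Neuropeptide genes had 6 of 107 (5.61%) at 18.1 per Mb, and ion channels 4 of 113 (3.54%) at 11.4 per Mb, both against 37.0 in all. Collagen-type symbols had 7 of 162 (4.32%) at 32.8 per Mb, and the strongest, dpy-19, encodes a C-mannosyltransferase and no collagen. C-type lectins had 6 of 237 (2.53%) at 27.2 per Mb. Heat shock and DnaJ genes had 1 of 46, hsp-16.1, yet 94.3 members per Mb, or 56.6 separate sites per Mb. All 5 members beside the family lay in the gap past the 3′ end of hsp-16.1. There was 1 gene each among 74 ribosomal protein, 67 P450, 63 UGT and 41 GST genes, at 24.8, 13.4, 19.8 and 28.7 members per Mb. T-box genes had 0 of 18 and Wnt pathway genes 0 of 11, which allows shares up to 18.5% and 28.5% by the exact interval.

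Noncoding genes of any kind lay within 1000 bp of 184 members (30.3%), as they did of 33.2% of the bases that met the rule, and kinds were then counted apart. Of these, snRNA genes had 0 members within 1000 bp upstream (0.165% of bases). In 16 members (2.63%, exact 95% interval 1.51 to 4.24%) the summit was within 1000 bp upstream of a snoRNA gene, a stretch that holds 0.322% of the bases that met the rule, and in 11 of these the distance was at most 63 bp. The signals of the 16 ran from 102.6 to 336, with T06C12.16 (336, 42 bp) and W03C9.9 (318.5, 63 bp) the highest. GTTCGA, part of the internal promoter of RNA polymerase III genes, was in 5 of those 11 windows, in 24 of all 608 member windows (3.95%), in 3.47% of promoter peaks and in 34 autosomal peaks near tRNA genes (31.2%).

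MicroRNA genes had 10 members within 1000 bp upstream (1.64%, 0.791 to 3.0%; 0.357% of bases), at 7 genes. The paired members at mir-52, mir-80 and mir-48 overlap, so the separate sites are fewer than 10, and the share and interval count members. The strongest was at mir-52 (555, with a second peak of 160 in the same interval), followed by mir-80 (270), mir-53 (220) and mir-60 (175). Next to mir-48 and mir-241, let-7 family microRNAs of developmental timing that share the gap before unc-39, the signals were 136 and 110 for mir-48 and 132 for mir-241. Upstream stretches of piRNA genes held 6.09% of members and 10.6% of bases, and those of pseudogenes 2.96% and 5.49%. These comparisons were not tested, and the small RNA genes were singled out after their values were seen.

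The thresholds of the rule fell between neighbouring peaks. Just inside, members lay 1008, 1011 and 1013 bp upstream of mstr-1, rhy-1 and Y50D7A.8, with signals of 397, 440.5 and 114.6. Just outside were promoter peaks 991, 984 and 984 bp upstream of dnc-1, ZK688.10 and uda-1, with signals of 122, 133 and 170. The distance from tRNA genes left a wide margin, since the nearest members lay 1324, 1347 and 1388 bp away and the farthest intergenic peaks assigned to tRNA genes outside promoter windows lay 272, 136 and 128 bp away. Only 1 member summit fell in a gene of the RefSeq annotation of the same assembly, and 0 lay within 50 kb of unc-119.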

How the data were processed

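The authors deposited region lists on ce11 for replicate 1, replicate 2, both pooled, and the optimal IDR set; for the aligner, caller, versions and IDR threshold, the sources used here gave no name or value. The deposited signal of each region is on the caller's scale, as the authors made it, and served only within a list. Each region also carries the authors' summit. The lists hold no read counts, so depth was unknown, and exact intervals cover counting error over peaks, not variation between replicates.

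Genes came from Ensembl release 115 for WBcel235, whose chromosome lengths matched ce11. A region overlapped a peak with at least 1 bp, and the region with the nearest summit was taken. Summits chained within 1000 bp formed 532 clusters. The McNemar, Fisher and binomial tests were exact and two-sided, adjusted by Benjamini-Hochberg. The McNemar and Fisher tests of sequences were checked on windows with planted sequences. The binomial tests of orientation and central position were checked only on positions drawn at random, with no planted difference. All these tests treat peaks as independent, so p-values cover the spread over peaks. Binomial tests used the share of the 16.4 Mb of autosomal bases that met the rule. Named genes were those beside the 25 strongest clusters found in both replicates and up to 4 per family by signal. Named sequences were the 12 presets and the 10 smallest p in each direction. The members, families and lists were chosen with earlier results of these data known. Alternatives changed the window, flank, peak definition, threshold or replicate. Tests ran in scipy 1.17.1 under Python 3.11.15, tables in pandas 2.3.3 and numpy 2.4.6, plots in matplotlib 3.10.9.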

Additional observations from a re-analysis of the deposited data

How the results depend on the processing

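Direction and call were kept in the 5 alternatives run for the convergent deficit (ratio 0.525 to 0.667) and the central excess (1.29 to 1.38). The number of members was 322 above the median signal of nuclear IDR peaks and 384 with the promoter window at 2000 and 500 bp. Against flanks, the sequences called higher numbered 77 above that median, 70 with that window, 55 in 50 bp and 279 in 200 bp windows, and those called lower 87, 76, 66 and 206. Against promoter peaks, the higher calls numbered 5 with 1 peak per cluster, then 3, 4, 2 and 22 in the order just given, and 5 to 8 without a replicate, and the lower calls 7, 6, 5 and 58, and 18 to 34 without a replicate. Against distal X peaks, higher calls numbered 1 above that median, 0 with the longer window, 0 in 50 bp windows and 0 to 6 without a replicate, and lower calls 2 per cluster, 0 above that median, 0 with the longer window, 3 in 200 bp windows and 2 to 4 without a replicate. By Fisher's exact test, unadjusted p was under 0.05 for 115 sequences above the median, 107 with the longer window, 106 in 50 bp windows and 128 in replicate 1 alone, the settings with 0 calls in a direction.

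By the exact binomial test the tandem ratio passed above that median (1.115, adjusted p = 0.0440) and the divergent ratio with the longer window (1.22, adjusted p = 0.0144). The excess of neighbouring summits over promoter peaks was lost at 500 bp (3.32 points), with merged intervals (3.23) and with the longer window (3.51), where the difference from distal X peaks passed (-14.8). Uncalled values changed sign for V (0.985 above that median, 0.987 to 1.09 without a replicate), replicate summits (2.59 at 25 bp against X, 0.347 against promoters with the longer window) and repeated windows (-0.416 over 50% against X, 0.233 per cluster and 0.8335 with the longer window against promoters). The cause of each change was not tested. Among named sequences, 87 calls in alternatives were lost, 14 were gained, and no call reversed. The difference of a named sequence changed sign in 40 further cases, where neither setting passed. Depth was unknown, so it set no stated limit.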
